A study of Mus musculus with 3 samples.

Results

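A set of 7 cancer-testis genes, Luzp4, Ct55, Mageb4, Fmr1nb, Taf7l2, Zfp36l3 and Tcp11x2, were followed across 3 cultures of male mouse embryonic stem cells. They are 7 of 20274 genes that could be named on the array, and all 9 probes whose RefSeq accession belongs to them were read. They were chosen by their levels on these arrays, high in edited cells and then lower or still high once Pcgf6 was given back, so their differences are a description and carry no test. The first group was wildtype. The line called Pcgf6KO was made with Cas9, and the line called Pcgf6KO+ Pcgf6_flag by lentiviral infection, as its name says with Pcgf6 and a Flag tag. Each group had 1 array, so no difference has a replicate check. All cultures shared serum, leukemia inhibitory factor and a layer of mitomycin-treated embryonic fibroblasts, and fewer cells of a type cannot be told apart from less RNA per cell. The sources used here do not give strain, passage or whether a line is 1 clone.

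Cancer-testis genes are genes whose products are normally made in the germ line, above all in the testis, and reappear in tumours, where they can act as antigens. Many lie on the X chromosome. In embryonic stem cells such genes are kept low by DNA methylation, by histone H3 lysine 9 methylation and by the variant Polycomb complex PRC1.6, which contains the RING finger protein Pcgf6 together with the DNA-binding factors E2f6, Mga and Max. Luzp4 is related to a human adaptor protein for messenger RNA export, and Mageb4 belongs to the MAGE family, whose members bind RING-type ubiquitin ligases. Ct55 is named for the human tumour antigen CT55. Fmr1nb is named for its neighbour Fmr1, and its human counterpart is also known as the tumour antigen NY-SAR-35. Taf7l2 is a relative of the general transcription factor subunit Taf7, and Tcp11x2 an X-linked relative of the testis gene Tcp11. Zfp36l3 encodes a rodent relative of the AU-rich-element-binding protein tristetraprolin. It is known mainly from placenta and yolk sac, so the name cancer-testis fits it less well than the others.

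The promoters of 4 genes are printed because Luzp4, Ct55 and Mageb4 followed one pattern across the arrays and Fmr1nb, on its brighter probe, another. Each is the 250 bases before the start site from RefSeq (GRCm38.p6), 5′ to 3′ on the gene's strand. The array itself is annotated on mm9, and no coordinate of the array was used. Capitals mark every CpG, the E-box CACGTG in Ct55 and the palindrome TCTCGCGAGA in Fmr1nb.
Luzp4, chrX:148882326-148882575, plus strand: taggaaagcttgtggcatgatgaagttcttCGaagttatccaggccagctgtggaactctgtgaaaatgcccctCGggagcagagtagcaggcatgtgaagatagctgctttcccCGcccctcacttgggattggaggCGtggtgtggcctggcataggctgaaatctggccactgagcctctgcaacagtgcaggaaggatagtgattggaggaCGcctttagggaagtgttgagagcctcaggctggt
Ct55, chrX:53724581-53724830, plus strand: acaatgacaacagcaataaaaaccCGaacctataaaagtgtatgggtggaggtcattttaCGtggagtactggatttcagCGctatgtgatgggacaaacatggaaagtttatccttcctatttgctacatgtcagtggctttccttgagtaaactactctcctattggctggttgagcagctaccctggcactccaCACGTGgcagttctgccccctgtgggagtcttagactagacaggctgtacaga
Mageb4, chrX:86256220-86256469, minus strand: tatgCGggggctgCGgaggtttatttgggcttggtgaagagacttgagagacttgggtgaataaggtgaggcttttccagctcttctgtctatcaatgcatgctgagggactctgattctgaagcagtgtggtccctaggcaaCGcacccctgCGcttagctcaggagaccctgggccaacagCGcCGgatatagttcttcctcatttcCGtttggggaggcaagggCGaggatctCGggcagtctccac
Fmr1nb, chrX:68761589-68761838, plus strand: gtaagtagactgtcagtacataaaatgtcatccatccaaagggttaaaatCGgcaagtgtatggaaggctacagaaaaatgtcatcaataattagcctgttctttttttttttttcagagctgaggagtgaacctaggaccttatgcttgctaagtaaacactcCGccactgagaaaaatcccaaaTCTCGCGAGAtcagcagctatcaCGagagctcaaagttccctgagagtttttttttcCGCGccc
CACGTG, the sequence that Max and its partners bind, was present in 1 of the 7 promoters, that of Ct55, beginning 53 bases before the start. It is its own reverse complement and was present in 6.02% of 32851 promoters of the same length. GCGGGA, a core of E2F sites searched on both strands, was in none of the 7 and in 16.9% of all. TCTCGCGAGA, also its own reverse complement and searched after the Fmr1nb sequence had been seen, began 64 bases before its start and was present in 0.39% of promoters. The number of CpGs was 5 for Luzp4, 4 for Ct55, 9 for Mageb4, 7 for Fmr1nb and 6 for Zfp36l3, against a median of 6 (quartiles 2 and 16). Taf7l2 had 18 and Tcp11x2 had 0. The 7 promoters thus shared neither motif, and they spanned the range from a CpG-free to a CpG-rich sequence.

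Pcgf6 itself was read by 1 probe with levels of 1.87 in wildtype, 0.84 in Pcgf6KO and 0.43 on the Pcgf6KO+ Pcgf6_flag array. These levels, like all below, are log2 signals relative to the signal at the 75th percentile of the same array. The sources used here do not say which stretch of Pcgf6 the probe reads, so it settles neither label. Directions drawn from the Pcgf6KO+ Pcgf6_flag array rest on its label alone. That array lay on a slide of its own, so group and slide cannot be told apart for it, and its lowest signal well above background was 103 units against 52.7 in wildtype and 53.4 in Pcgf6KO. The SD between repeated spots of a probe was 0.09 on each array, or 0.13 for a difference between 2 arrays, which leaves out the spread between cultures.

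All 7 genes were higher in Pcgf6KO than in wildtype, from 3.11-fold for Zfp36l3 to 81.6-fold for Luzp4. The background is that 6.59% of 15879 genes measured on at least 1 of these 2 arrays were at least 2-fold higher. On the Pcgf6KO+ Pcgf6_flag array 6 of the 7 were at least 2-fold lower than in Pcgf6KO, where 10.0% of genes were, and 0 were at least 2-fold higher, where 6.18% were. The exception was Fmr1nb on its brighter probe. Against wildtype, 3 genes were still at least 2-fold higher on that array (5.83% of all genes), 3 were within 2-fold, 0 were at least 2-fold lower (6.28% of all genes), and Taf7l2 had no value. The 6 genes other than Fmr1nb were at least 2-fold higher in Pcgf6KO than on both other arrays, as were 4.42% of all genes. Because the genes were listed for such differences, nothing is read from these counts. Both comparisons with Pcgf6KO share its array.

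**Figure D1:**
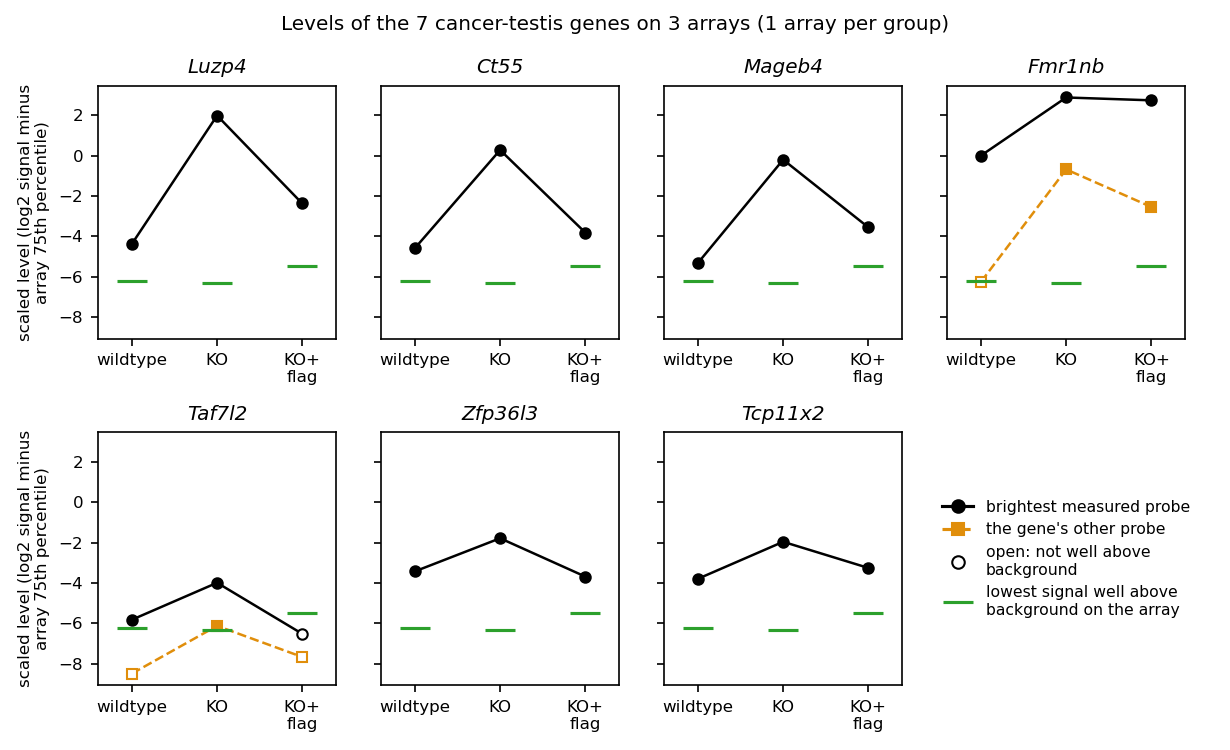
Scaled level (log2, relative to the 75th percentile of the array) of each probe of the 7 genes in wildtype, Pcgf6KO (KO) and Pcgf6KO+ Pcgf6_flag (KO+ flag), 1 array each. Filled symbols are signals well above background, open symbols are not, and short bars mark the lowest signal well above background; the 2 Fmr1nb probes separate on the last array, at 2.74 and -2.54, and levels of different probes are not comparable with each other.

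Luzp4 showed the widest range. Its signal was 190 ± 21.8 units in wildtype, 16991 ± 1699 in Pcgf6KO and 894 ± 91.8 on the Pcgf6KO+ Pcgf6_flag array, where ± is the error that Feature Extraction assigns to the spot. As scaled levels these were -4.37, 1.98 and -2.37. The Pcgf6KO array was the high one, and the Pcgf6KO+ Pcgf6_flag array lay between the others. The difference from wildtype was 6.35 in log2 units, the second highest of 14997 genes measured on both arrays. From Pcgf6KO to the Pcgf6KO+ Pcgf6_flag array it was -4.35, or 20.4-fold lower. Luzp4 was still 3.99-fold above wildtype there, so 31.4% of the log2 difference remained.

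Ct55 gave 164 ± 19.7 units in wildtype, 5207 ± 520.8 in Pcgf6KO and 329 ± 39.7 on the Pcgf6KO+ Pcgf6_flag array. Its scaled levels were -4.58, 0.28 and -3.81, again highest in Pcgf6KO, with the other 2 arrays close together. The gene was 28.9-fold higher in Pcgf6KO than in wildtype and the log2 difference from there to the Pcgf6KO+ Pcgf6_flag array was -4.09. Its remaining difference from wildtype was 0.77, within 2-fold. Of Luzp4, Ct55 and Mageb4, Ct55 came nearest to its wildtype level, with 15.8% of the log2 difference left.

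Mageb4 had 98.7 ± 16.3 units in wildtype, 3738 ± 374 in Pcgf6KO and 395 ± 46.5 on the Pcgf6KO+ Pcgf6_flag array. The scaled levels were -5.31, -0.20 and -3.55, in the same order as for Luzp4. It was 34.5-fold higher in Pcgf6KO than in wildtype. On the Pcgf6KO+ Pcgf6_flag array it was 10.2-fold lower than in Pcgf6KO and 3.39-fold above wildtype, with 34.5% of the log2 difference left. The wildtype signal was within 2-fold of the lowest signal well above background, and with normexp background correction the difference between Pcgf6KO and wildtype was 4.04 in place of 5.11.

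Fmr1nb was read by a pair of probes matched to the same accession, NM_174993, and they gave different pictures of the Pcgf6KO+ Pcgf6_flag array. The brighter probe, A_55_P2115318, had 3932 ± 393 units in wildtype, 31626 ± 3163 in Pcgf6KO and 30841 ± 3084 on the Pcgf6KO+ Pcgf6_flag array, or scaled levels of 0.01, 2.88 and 2.74. On it the gene was clearly measured in wildtype already, was 7.34-fold higher in Pcgf6KO and differed by -0.14 from there to the Pcgf6KO+ Pcgf6_flag array. That last difference is about the size of the spread between repeated spots, and 95.1% of the log2 difference from wildtype remained.

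The dimmer probe, A_55_P2115315, had 51.7 ± 13.9 units in wildtype, which is not well above background, 2676 ± 268 in Pcgf6KO and 793 ± 83.0 on the Pcgf6KO+ Pcgf6_flag array. It was at least 46.3-fold higher in Pcgf6KO than in wildtype, computed against the lowest wildtype signal well above background. From Pcgf6KO to the Pcgf6KO+ Pcgf6_flag array it was 3.63-fold lower, a log2 difference of -1.86, and it stayed at least 12.8-fold above wildtype. Both probes thus put Fmr1nb above wildtype on the Pcgf6KO+ Pcgf6_flag array, but only the brighter one left it at the Pcgf6KO level. Read from the dimmer probe, all 7 genes were at least 2-fold lower there than in Pcgf6KO.

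The gap of 1.72 log2 units between the Fmr1nb probes was uncommon on these arrays. Of 3099 genes with a pair of probes well above background in Pcgf6KO and on the Pcgf6KO+ Pcgf6_flag array, 55, or 1.77%, had a gap that large, and the median gap was 0.26. No spot was saturated on any array, and the brightest Pcgf6KO probe reached 217648 units. The sources used here do not place either probe within the Fmr1nb transcripts, and whether the probes read different transcripts was not tested.

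**Figure D2:**
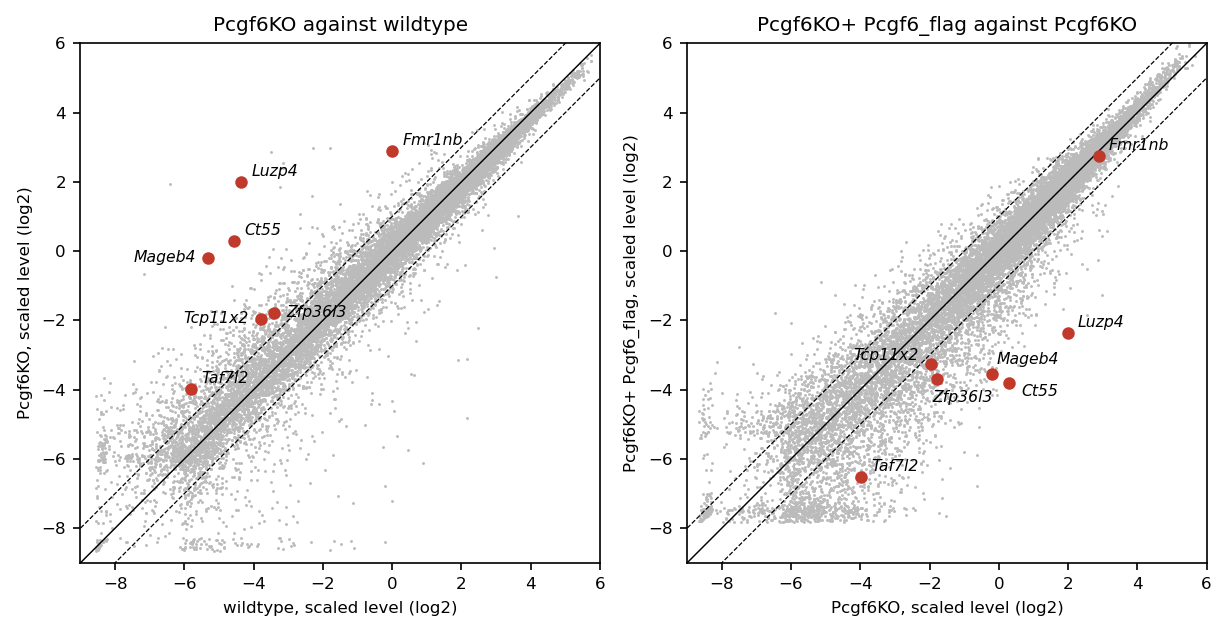
Scaled level (log2) of 16048 genes measured on at least 1 array (grey) and of the 7 cancer-testis genes (red), Pcgf6KO against wildtype on the left and Pcgf6KO+ Pcgf6_flag against Pcgf6KO on the right. The solid line is equality and dashed lines are 2-fold; all 7 genes lie above the upper line on the left, and all but Fmr1nb below the lower line on the right.

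The remaining genes differed less. Zfp36l3 had scaled levels of -3.43 in wildtype, -1.79 in Pcgf6KO and -3.69 on the Pcgf6KO+ Pcgf6_flag array. It was 3.11-fold higher in Pcgf6KO, and on the last array it lay 0.26 log2 units under wildtype, within 2-fold. Of the 6 genes with a value there, it alone was below its wildtype level. Since Zfp36l3 is a placental gene, trophoblast markers were read beside it. Of 8 markers 2 were at least 2-fold higher in Pcgf6KO, Hand1 by 1.48 and Krt8 by 1.13, and 0 were lower. The 2 are 25% of the markers, beside 6.59% of all genes, and 3.56% of all genes were lower. Krt18 differed by 0.54, Cdx2 by 0.50, Gata3 by 0.49, Tfap2c by 0.44 and Ascl2 by -0.04, all within 2-fold. Elf5 was well above background in Pcgf6KO only, with a bound of at least 1.51-fold. Summed over the markers, the scaled signal came to 20.7 for wildtype, 32.4 for Pcgf6KO and 20.1 for the Pcgf6KO+ Pcgf6_flag array. Krt8 and Krt18 were the brightest markers on each array and weigh most in these sums. Against wildtype, 2 of 7 markers were at least 2-fold lower on the Pcgf6KO+ Pcgf6_flag array, Cdx2 with -2.31 and Ascl2 with -1.15. These are 28.6%, beside 6.28% of all genes, and 0 were at least 2-fold higher, beside 5.83%. Similar sums therefore do not mean that each marker was at its wildtype level. The part of the trophoblast markers in the Zfp36l3 difference was not tested.

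Tcp11x2 had levels of -3.79, -1.96 and -3.26 in the same order. It was 3.56-fold higher in Pcgf6KO and 2.45-fold lower on the Pcgf6KO+ Pcgf6_flag array than in Pcgf6KO, where it ended 0.54 above wildtype, within 2-fold. Taf7l2 was the dimmest case, with 69.2 ± 13.5 units in wildtype, 270 ± 29.4 in Pcgf6KO and 50.3 ± 31.1 on the Pcgf6KO+ Pcgf6_flag array, the last not well above background. It was 3.55-fold higher in Pcgf6KO. On the Pcgf6KO+ Pcgf6_flag array its bound was at least 2.82-fold lower than that. Its other probe was well above background in Pcgf6KO only, at 61.4 units. With normexp background correction the Taf7l2 difference between Pcgf6KO and wildtype was 0.87 and no longer reached 2-fold.

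Relatives or namesakes of the 7 genes were compared between Pcgf6KO and wildtype. Luzp1 and Fmr1 share part of a name with Luzp4 and Fmr1nb, and no sequence relation to them was examined. Of 19 such genes on the array 13 were measured, and 0 of them passed 2-fold in either direction, with a median difference of 0.07. Over all genes 6.59% were at least 2-fold higher and 3.56% lower, so a count of 0 among 13 lies near that share. The general subunit gene Taf7 differed by 0.23 and its germ cell paralog Taf7l by 0.86. The tristetraprolin relatives Zfp36, Zfp36l1 and Zfp36l2 differed by 0.33, -0.31 and 0.13. Tcp11 differed by -0.19, Tcp11l2 by -0.06, Luzp1 by -0.39 and Fmr1, next to Fmr1nb, by 0.16. Of the MAGE genes in this set, Mageb16 differed by 0.07, Maged1 by 0.07, Maged2 by -0.05 and the imprinted gene Magel2 by 0.54.

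The MAGE family as a whole had 20 genes on the array, and 11 had a signal well above background on some array. Mageb4 and the pseudogene Mageb16-ps1, higher by 1.26, were the 2 that passed 2-fold in Pcgf6KO, and 0 were lower. Over all genes 6.59% were at least 2-fold higher and 3.56% lower, and Mageb4 had been listed for its difference. Mageb1, Mageb3, Mageb5 and Mageb18 were not well above background on any array. MAGE-B genes resemble each other, and whether the Mageb4 probe also reads a relative was not tested.

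The genes of the machinery that keeps such genes low were also read in Pcgf6KO and wildtype. Of 25 PRC1.6 and silencing genes only Pcgf6 passed 2-fold in this comparison, a share near the 6.59% higher and 3.56% lower over all genes. The median difference was -0.19. Mga differed by -0.35, Max by -0.23, L3mbtl2 by -0.09, Rnf2 by 0.04 and E2f6 by 0.56. The largest differences after Pcgf6 were 0.75 for the deacetylase gene Hdac2, 0.69 for Yaf2 and -0.58 for Tfdp2. Among DNA methyltransferases, Dnmt1 differed by -0.35, Dnmt3a by -0.44, Dnmt3b by -0.35 and their cofactor Dnmt3l by -0.29. Uhrf1, which recruits Dnmt1, differed by -0.42. The lysine 9 methyltransferase genes Setdb1, Ehmt1 and Ehmt2 differed by -0.03, -0.16 and -0.46, and the Setdb1 partner Trim28 by -0.37. The other members differed by -0.01 for Hdac1, 0.05 for Wdr5, 0.12 for Cbx3, -0.08 for Rybp, -0.19 for Ring1, -0.23 for Tfdp1 and -0.19 for Kdm5c.

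Other cancer-testis genes were read from a list of 106 symbols, of which 88 were on the array and 62 were measured in wildtype or Pcgf6KO. In Pcgf6KO 18 of the 62, or 29.0%, were at least 2-fold higher, beside 6.59% of all genes, and 2 were at least 2-fold lower, or 3.23%, beside 3.56% of all genes. The median difference was 0.29, beside -0.02 over all genes. Tex11, needed for meiotic chromosome pairing, was higher by 3.35, the testis bromodomain gene Brdt by 2.92, the meiotic chromosome axis gene Hormad2 by 2.88 and the germ cell surface gene Tex101 by 2.87. The RNA export factor gene Nxf2 was higher by 2.61 and Tex16 by 2.57. The testis paralog of the insulator protein gene, Ctcfl, had no signal well above background in wildtype, and its bound in Pcgf6KO was at least 5.42-fold. The lower genes were the testis kinase gene Tssk6 with -1.82 and the germ cell ATPase gene Morc1 with -1.14.

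On the Pcgf6KO+ Pcgf6_flag array 16 of those 18 genes were at least 2-fold lower than in Pcgf6KO. Both comparisons use the Pcgf6KO array on which the 18 were picked as high, and 67.7% of all 1047 genes picked the same way were lower too, so nothing particular to the list is read from the count. The 2 others were Usp26 and Spo11, named after their values were seen. Usp26, an X-linked testis deubiquitinase gene, had levels of -5.72 in wildtype, -4.29 in Pcgf6KO and -1.85 on the Pcgf6KO+ Pcgf6_flag array, so it was 5.46-fold higher there than in Pcgf6KO. Spo11, which makes the breaks of meiotic recombination, was well above background in Pcgf6KO only, with a bound of at least 1.56-fold. Of the 18 genes 7 lie on the X chromosome. The share of X-linked genes in the whole list was not worked out, so nothing is read from the 7. The list was written with earlier results of these data known.

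**Figure D3:**
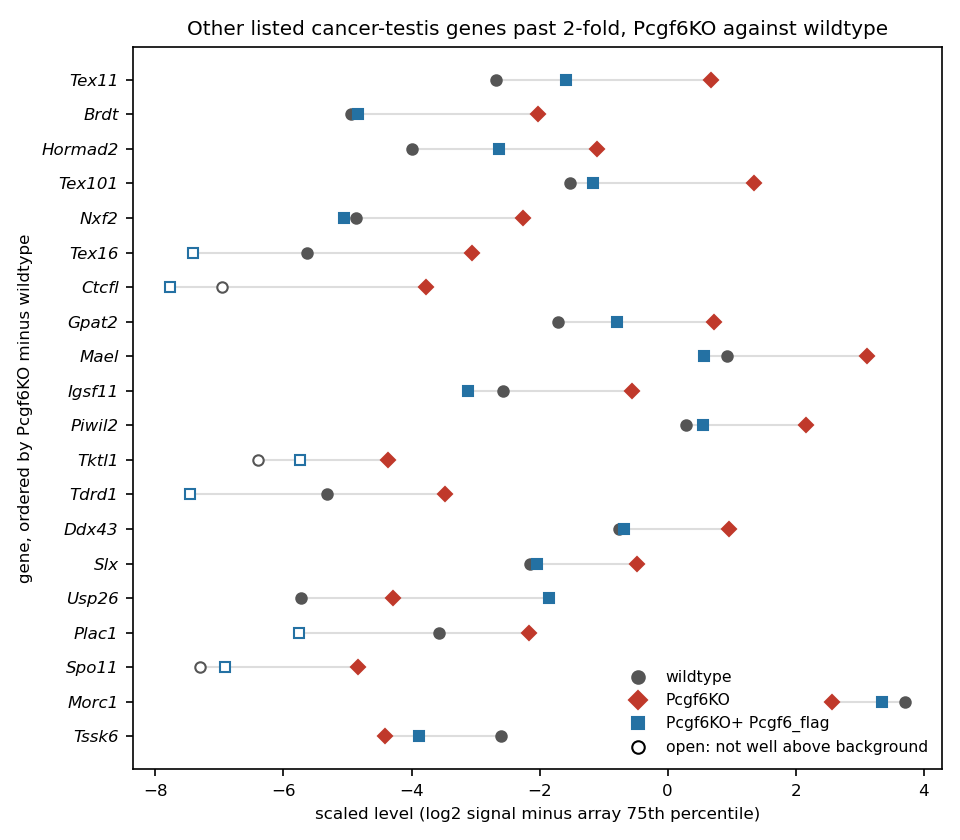
Scaled level (log2, relative to the 75th percentile of the array) of the 20 other listed cancer-testis genes past 2-fold when Pcgf6KO (diamonds) is set against wildtype (circles), with the Pcgf6KO+ Pcgf6_flag array as squares and open symbols for signals not well above background. The Pcgf6KO symbol lies furthest right for 17 of the 18 higher genes, and Usp26 is the exception.

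Of the 7 genes 6 lie on the X chromosome and Taf7l2 on chromosome 10. Leaving the 6 out, 94 of 605 X-linked genes, or 15.5%, were at least 2-fold higher in Pcgf6KO than in wildtype, against 6.20% of 15268 genes elsewhere. On the Pcgf6KO+ Pcgf6_flag array 20.7% of X-linked genes other than these were at least 2-fold lower than in Pcgf6KO, against 9.56% elsewhere. Both comparisons use the Pcgf6KO array, and 67.7% of all 1047 genes at least 2-fold higher there were lower on the third array. The second share is therefore not a result separate from the first. Several X-linked families have near-identical members whose probes may share transcripts, so these genes are not independent of each other.

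The genes around the 7 were taken as the 5 nearest protein-coding genes on each side that the array reads, by their order in RefSeq. Of 61 such neighbours 43 were measured in wildtype or Pcgf6KO, and 11 of them, or 25.6%, passed 2-fold upwards in Pcgf6KO and 0 downwards. Over all genes the shares were 6.59% and 3.56%, and over X-linked genes other than the 6, where most of these neighbours lie, 15.5% passed upwards. Luzp4 was followed by Gm15085, higher by 5.72, and Gm10439, higher by 5.27, while the measured genes before it and beyond them were within 2-fold. On the Pcgf6KO+ Pcgf6_flag array Gm15085 and Gm10439 were lower than in Pcgf6KO by -4.40 and -4.26, values close to the -4.35 of Luzp4. Whether the probes of these 3 genes read shared sequence was not tested.

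Ct55 and Zfp36l3 lie 2 places apart. The gene between them, 1700013H16Rik, had no signal well above background in wildtype, and its bound in Pcgf6KO was at least 283-fold. Beyond Zfp36l3, Xlr, which names a family of X-linked lymphocyte genes, was higher by 3.13, Gm14625 by 2.32 and 3830403N18Rik by 1.70. On the other side of Ct55, the retrotransposon-derived genes Rtl8a, Rtl8b and Rtl8c differed by 0.61, 0.22 and 0.28. The higher genes therefore formed a run on one side only, in which Slxl1 was not measured.

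The other genes stood more alone. Next to Mageb4, the orphan receptor gene Nr0b1 differed by -0.68, and the first higher neighbour was Gm44, 5 places away, with 3.50. Next to Fmr1nb, Fmr1 was within 2-fold and Gm6812 on the other side was higher by 1.15. Around Tcp11x2 the thymosin gene Tmsb15a was higher by 1.54 and Tceal6 by 1.68. Around Taf7l2 the tetraspanin gene Tspan8 was higher by 1.92.

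**Figure D4:**
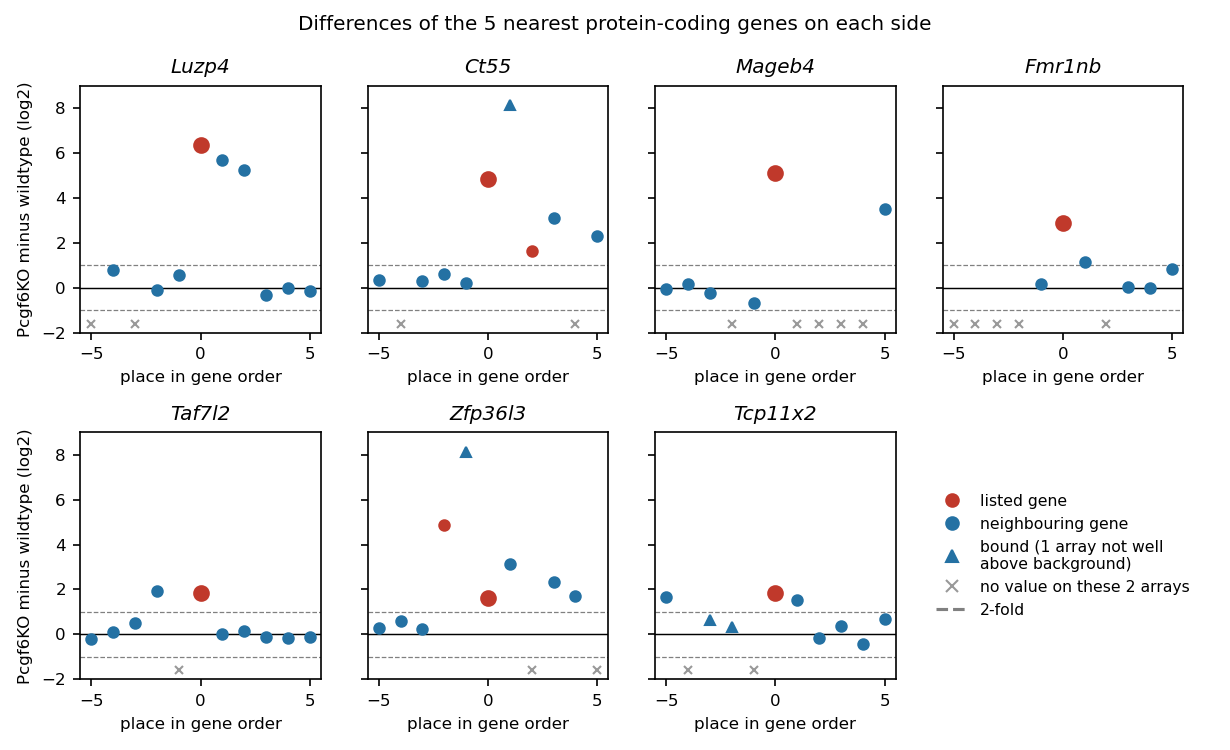
Log2 difference between Pcgf6KO and wildtype for each of the 7 genes (large red points at place 0) and the 5 nearest protein-coding genes of the array on each side, in gene order. Triangles are bounds, crosses are genes with no value on these 2 arrays and dashed lines are 2-fold; higher neighbours run together beside Luzp4, Ct55 and Zfp36l3.

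Genes with the most similar pattern were sought by the distance between their 2 differences, Pcgf6KO from wildtype and Pcgf6KO+ Pcgf6_flag from Pcgf6KO, among 14928 other genes with a regular symbol that were measured in Pcgf6KO. The pattern has only 3 arrays, so likeness is a description. Nearest to Mageb4 was Xlr3a at a distance of 0.18 log2 units, followed by Xlr4a at 0.73, Xlr3b at 0.89 and the neurotensin gene Nts at 1.096. Xlr3a was also nearest to Ct55, at 0.61, before the piRNA factor gene Tdrkh at 1.02, Nts at 1.16 and the germ cell RNA-binding gene Rbm46 at 1.296. Differences of Nts and Rbm46 include signals not well above background. Among regular symbols the nearest to Luzp4 were Xlr4b at 1.23, Xlr3a at 1.501, Xlr4a at 1.77 and Xlr5c at 2.34, the last not well above background in wildtype. Genes with predicted names had been left out, and 2 of them were closer to Luzp4 than Xlr4b, its neighbours Gm15085 at 0.63 and Gm10439 at 1.09. Gm10439, at 0.45, was also closer to Ct55 than Xlr3a. Nearest to the brighter Fmr1nb probe were the hair keratin gene Krt32 at 0.53, the testis tubulin gene Tuba3b at 0.62, the synaptonemal complex gene Tex12 at 0.699 and Pnma5 at 0.71. Of 680 genes that were at least 2-fold higher in Pcgf6KO and measured on all 3 arrays, 98 were at least 2-fold above wildtype on the Pcgf6KO+ Pcgf6_flag array and 70 of these were also within 2-fold of Pcgf6KO, as Fmr1nb was on its brighter probe.

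The cell type label was checked on markers. All 8 pluripotency markers were well above background on each array and 0 passed 2-fold in Pcgf6KO, with Pou5f1 differing by -0.20 and Nanog by -0.10. Over all genes 6.59% were at least 2-fold higher and 3.56% lower, so 0 of 8 lies near that share. Of 12 fibroblast markers 11 were measured in wildtype, Lum on no array. In Pcgf6KO 8 of the 11, or 72.7%, were at least 2-fold lower, beside 3.56% of all genes. Summed over the fibroblast markers, the scaled signal fell from 25.9 in wildtype to 9.82 in Pcgf6KO and 3.19 on the Pcgf6KO+ Pcgf6_flag array. Whether the share of feeder RNA bears on the levels of the 7 genes was not tested. Of 8 germ cell markers 3, or 37.5%, were at least 2-fold higher in Pcgf6KO, beside 6.59% of all genes, and 0 were lower. The 3 were Tex101 and the piRNA pathway genes Mael and Piwil2 with 2.19 and 1.87. The cancer-testis list holds all of them too.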

How the data were processed

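RNA of 3 cultures was labelled with Cy3 and hybridised to 1-colour Agilent arrays, 1 per group, and grouped by genotype label; a source name that reads muscle was not followed, since the cell type label gives stem cells. The deposited scanner output holds spot intensity on a linear scale, which Agilent Feature Extraction 11.5.1.1 had background-subtracted, per the file headers, while the submitters' processing notes list version 10.7. For 55249 of 55249 probes with 1 spot on each array, the deposited value table held the same intensity within a relative tolerance of 1e-06.

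Outlier spots (141, 158 and 192) were left out, repeated spots averaged, and log2 intensity taken relative to the 75th percentile of each array, whose signal was 3915, 4293 and 4616. Of 55647 probes 26746 were named by their RefSeq accession, versions removed, through a gene table of GRCm38.p6. For a gene with several probes the brightest was used, provided it was well above background on at least 1 array. Where 1 of 2 arrays was not, the fold is a bound ("at least"), whose dim side is the probe's own signal or the lowest well above background on that array, whichever is higher. A 2-fold rule stood in for a test, since each group has 1 array, and that number limits the precision.

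The members, gene lists, naming rule and alternatives were chosen with earlier results of these data known. Named were the 7 genes, Pcgf6, the measured relatives or namesakes and the silencing genes. Also named were the leading genes of other lists past 2-fold, neighbours past 2-fold and the 4 nearest patterns. Of the listed cancer-testis symbols 100 were found under current names. Simulated data tested the 2-fold calls only for changed genes brighter in wildtype than each of the 7 genes except Fmr1nb. The simulation held no bounds, so calls of dim genes and bounds were not tested. Python 3.11.15, pandas 2.3.3, numpy 2.4.6, R 4.3.3 and limma 3.58.1 were used, with normexp on median spot signals at an offset of 50.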

Additional observations from a re-analysis of the deposited data

How the results depend on the processing

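The alternatives were normexp background correction, quantile normalization, scaling to the median or over probes well above background on all 3 arrays, outlier spots kept, the mean over probes, and the deposited table with and without scaling. No difference of the 7 genes changed sign under these 8. The median difference between Pcgf6KO and wildtype over the genes was 2.88, and 4.22 with the mean over probes and 3.01 in the unscaled table, where the median of all genes shifted to 0.11. Each of these medians over the 7 genes was the value of Fmr1nb. Its mean over probes takes in the dimmer probe, whose difference from wildtype is a bound. Between the Pcgf6KO+ Pcgf6_flag and Pcgf6KO arrays the median difference was -1.90, and -1.63 with normexp. Between the Pcgf6KO+ Pcgf6_flag and wildtype arrays it was 1.26 over 6 genes, and 1.5015 in the unscaled table. With normexp Taf7l2 had a value too, and the median over 7 genes was 0.69, the value of Ct55. The 1.26 and the 0.69 therefore cover different sets of genes. What else moved these medians was not tested. The count of genes at least 2-fold higher in Pcgf6KO was 7, and 6 with normexp, which took Taf7l2 out. The count at least 2-fold lower on the Pcgf6KO+ Pcgf6_flag array was 6, and 4 at a 3-fold threshold. With the mean over probes it was also 6, but Fmr1nb, at -1.0001, replaced Taf7l2, at -0.43. The dimmer Fmr1nb probe, an alternative chosen after the data were examined, gave 7. Ct55 was 1.0045 above wildtype on the Pcgf6KO+ Pcgf6_flag array in the unscaled table, just past 2-fold. Other cancer-testis genes at least 2-fold higher numbered 15 to 21 at 2-fold, 26 at 1.5-fold and 15 at 3-fold. The dim wildtype signals of Mageb4 and Taf7l2 limit how well their differences are known. Normexp also lowered the difference between Pcgf6KO and wildtype from 6.35 to 5.84 for Luzp4 and from 4.86 to 4.31 for Ct55. For Tcp11x2 it went from 1.83 to 1.51 and for Zfp36l3 from 1.64 to 1.46, while Fmr1nb, at 2.92, hardly moved. No paired analysis was possible because each group had 1 array and the labels carry no replicate numbers.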

Other observations

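Of 63 other listed cancer-testis genes measured on at least 1 array, 14 had their highest level on the Pcgf6KO+ Pcgf6_flag array. The same share over all genes was not worked out, so nothing is read from the 14. Of these, 6 were at least 2-fold higher there than in Pcgf6KO, namely Magea6, Ssxb10, Tex14, Usp26, Dkkl1 and Odf3. In the whole list 20 were at least 2-fold lower. The 6 are 9.84% of the 61 listed genes with a signal on either array, beside 6.18% of all genes. The 20 are 32.8% of the 61, beside 10.0% of all genes. The genes named here were chosen after their values were seen. Mageb16-ps1 had scaled levels of -3.96 in wildtype, -2.70 in Pcgf6KO and -0.69 on the Pcgf6KO+ Pcgf6_flag array. Magea6 was well above background on the Pcgf6KO+ Pcgf6_flag array only, at least 2.57-fold above Pcgf6KO. Ssxb10 was higher there than in Pcgf6KO by 1.102 log2 units, Tex14 by 1.23, Dkkl1 by 1.31 and Odf3 by 1.34. Usp26 was 14.7-fold above wildtype there, but its wildtype level of -5.72 was within 2-fold of the lowest signal well above background. The Pcgf6KO+ Pcgf6_flag array lay alone on its slide, and no second array of the group was analysed here.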
